A study of Mus musculus with 6 samples.

Results

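The aminoacyl-tRNA synthetase genes were followed through the last steps of CD8 T cell development in the mouse thymus. The group was defined by name: 20 genes listed for the cytosolic enzymes and 16 for the mitochondrial ones, 36 in all. Of these, 35 had a probe with a single gene symbol and stand among the 18193 genes on the array, each represented by its brightest probe. Dars, the listed aspartyl enzyme, was not analysed here, and Mars is carried on the array as Mars1. A filter on dim genes, at a mean of 5.19 on the log2 scale or an intensity of 30.7, left 10916 genes to test, 32 members among them: 19 of 19 cytosolic and 13 of 16 mitochondrial genes. Ears2, Mars2 and Sars2 fell below it.

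Sorted thymocytes of 3 stages were compared, each on 2 arrays. These were double-positive cells (DP, carrying CD4 and CD8), the intermediate population with reduced CD4 (CD4intCD8+) and CD8 single-positive cells (CD8SP). They came from mice described as N15 TCR tg+/+, RAG-2-/- and H-2b, matched for age and sex and 5 to 6 weeks old. The design names 6 mice for 2 independent experiments, and does not say whether the cells of several animals were pooled for an array. All groups share the homozygous N15 receptor transgene and the lack of Rag2, without which endogenous receptor genes are not rearranged. These thymocytes therefore carry a single receptor, restricted to MHC class I, and the 3 groups differ by their sort gate on CD4 and CD8. No group without the transgene or the deletion was compared. A Rag2 probe read 137 and 193 in DP and 2.1 to 30.1 in the other stages, which checks nothing, since all groups carry the deletion and the position of the probe is not given.

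Each synthetase joins an amino acid to its tRNA, and the charged tRNA carries it to the ribosome. Cells keep separate enzymes for the cytosol and for mitochondria, which translate their own small genome. Lysine and glycine are exceptions, in which Kars and Gars each supply both compartments, and mammalian mitochondria make glutaminyl-tRNA from a glutamyl-tRNA that Ears2 charges. The enzymes fall into 2 classes by the fold of the catalytic domain. Several cytosolic enzymes sit together in a multi-synthetase complex on the scaffold proteins Aimp1, Aimp2 and Eef1e1. Many cytosolic synthetase genes are known targets of Atf4, the transcription factor of the amino acid response.

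Defining genes of the sorted cells were read first. Cd3e read between 638 and 1002 and Cd3g between 1923 and 2794 over the 6 arrays. Rag1, switched off after the DP stage, read 1046 and 1054 in DP and 57.8 to 134 in the other stages. Cd4 read 351 and 515 in DP and no higher than 11.8 in CD4intCD8+ and CD8SP, so that the intermediate CD4 protein of the gate was not matched by transcript signal. Cd79a of B cells stayed at or under 15.8, Foxn1 of thymic epithelium at or under 16.7 and Itgax of dendritic cells at or under 31.9, while Csf1r and Lyz2 of myeloid cells reached 84.0 and 69.2 and Epcam of epithelium 69.4. Of 8 T cell markers 6 fell from DP to CD8SP and none rose, and both tested markers of the DP stage fell. The summed lists of B cell (88.4 to 227), myeloid (161 to 219), thymic epithelial (129 to 162) and erythroid genes (42.8 to 91.5) held 1 call from DP to CD8SP, a rise of Cd79b. In such bulk samples fewer cells of a type and less RNA per cell cannot be told apart. Nothing ties an array to its own animals, and p-values here reflect only how far the arrays differ, which may be technical.

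Promoters are shown for members whose window held a motif named below, except Tars. They are the 250 bases before the annotated start (RefSeq, GRCm38.p6). Windows were found for 26 of the 35 genes, 9 of them among the 12 that rose from DP to CD8SP. Both strands were searched for TGATGNAA, the core of the composite site of ATF4 and C/EBP factors, and for CACGTG, the E-box, which reads the same on both strands. The first was present in 3.45% of all 32851 windows of this length and in 3 of the 28 member windows (10.7%), those of Gars, Aars and Tars. The second was present in 6.02% of all windows and again in 3 member windows (10.7%), those of Farsb, Iars and Aars. The 28 windows include a pair for Aars2 and 1 for Dars. Capitals mark the matches. Gars, Farsb and Iars rose, and Aars, which holds both motifs without overlap between them, did so only with the replicate number as a block. Tars passed in neither fit. Eprs, Kars, Rars2, Sars, Yars and Yars2 rose without either motif in their windows. The first motif was in 1 of the 9 windows of genes called from DP to CD8SP and in 2 of the 19 others. The second was in 2 and 1 of them.
Gars, chr6:55037751-55038000, plus strand: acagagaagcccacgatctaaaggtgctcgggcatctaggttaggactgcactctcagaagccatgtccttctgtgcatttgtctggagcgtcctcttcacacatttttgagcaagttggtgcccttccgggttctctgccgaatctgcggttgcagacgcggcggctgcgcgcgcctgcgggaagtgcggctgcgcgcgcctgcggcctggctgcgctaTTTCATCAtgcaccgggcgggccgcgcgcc
Farsb, chr1:78488898-78489147, minus strand: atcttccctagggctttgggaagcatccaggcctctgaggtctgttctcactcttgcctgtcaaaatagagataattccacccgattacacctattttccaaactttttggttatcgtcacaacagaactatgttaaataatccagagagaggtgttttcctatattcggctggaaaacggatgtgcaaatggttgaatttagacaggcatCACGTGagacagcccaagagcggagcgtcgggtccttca
Iars, chr13:49681880-49682129, plus strand: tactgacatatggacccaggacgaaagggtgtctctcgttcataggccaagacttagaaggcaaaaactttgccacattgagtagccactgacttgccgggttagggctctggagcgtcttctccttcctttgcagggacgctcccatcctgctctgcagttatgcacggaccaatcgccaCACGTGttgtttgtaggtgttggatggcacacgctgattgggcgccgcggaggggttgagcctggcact
Aars, chr8:111033592-111033841, plus strand: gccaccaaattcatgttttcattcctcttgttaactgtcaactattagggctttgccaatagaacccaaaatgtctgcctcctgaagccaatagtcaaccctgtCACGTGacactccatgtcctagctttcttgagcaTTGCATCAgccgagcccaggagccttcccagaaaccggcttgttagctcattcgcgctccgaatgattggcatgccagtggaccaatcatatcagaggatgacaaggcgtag
The Gars match lies on the opposite strand, 30 to 23 bases before the start. The E-box of Farsb lies 39 to 34 bases before it, and that of Iars 69 to 64. In Aars the E-box lies 146 to 141 bases before the start and the reverse-strand TTGCATCA 112 to 105. None of the 15 windows of mitochondrial members held either motif. Such a match describes the letters of the window and shows nothing about binding.

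From DP to CD8SP, 12 of the 32 tested synthetase genes rose and none fell (limma, Benjamini-Hochberg adjusted p under 0.05; 17 genes had an unadjusted p under 0.05, Nars2 the only lower one). Over all genes tested 11.5% rose and 8.38% fell, 19.9% in all. The rise took in 10 of 19 cytosolic genes, Eprs, Farsb, Gars, Iars, Kars, Lars, Rars, Sars, Vars and Yars, and 2 of 13 mitochondrial genes, Rars2 and Yars2. The median log2 change was 0.48 in cytosolic and 0.17 in mitochondrial members, against 0.02 over all genes. Both CD8SP arrays lay above both DP arrays for 23 members, including 17 of the 19 cytosolic genes, and below them for Cars, Qars, Fars2 and Nars2. Over all genes tested 32.5% lay wholly above and 29.1% wholly below. In the fits without DP replicate 2 or CD8SP replicate 2, a smaller share of the members than of all genes was called. Leaving out 1 array moved the count: 7 members were called without DP replicate 1, 1 (Vars) without DP replicate 2, 8 without CD8SP replicate 1 and 2 (Vars and Farsb) without CD8SP replicate 2. The number of all genes called moved too, from 2172 to 1048, 1025, 1556 and 1092 in that order.

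**Figure D1:**
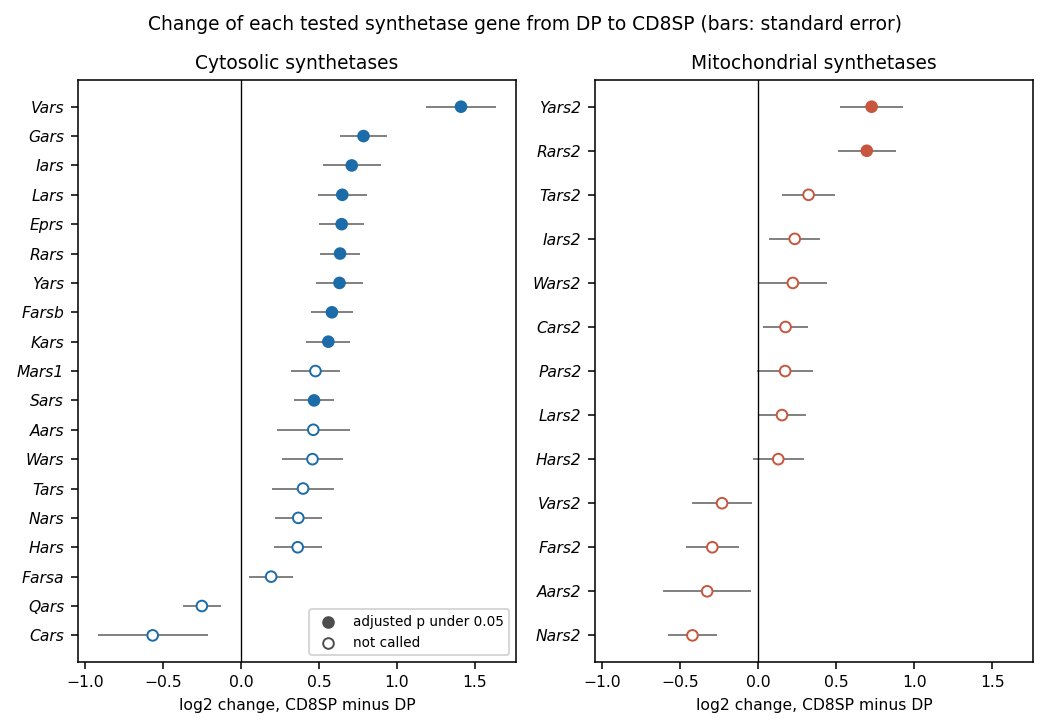
Log2 change from DP to CD8SP of each of the 32 tested synthetase genes (horizontal axis) with its standard error; filled points have an adjusted p under 0.05. Of the 19 cytosolic genes 17 lie to the right of 0, from Farsa at 0.19 to Vars at 1.41, while the 13 mitochondrial genes run from -0.42 in Nars2 to 0.73 in Yars2.

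Among the enzymes of the multi-synthetase complex, 5 of 7 tested rose from DP to CD8SP, beside 11.5% of all genes. Eprs, a single protein that charges glutamate and proline, read 257 and 247 in DP cells, 307 and 386 in CD4intCD8+ cells and 379 and 416 in CD8SP cells. Iars, the isoleucyl enzyme, read 276 and 273 in DP cells, 329.7 and 445 in CD4intCD8+ cells and 389 and 526 in CD8SP cells. Kars, the lysyl enzyme, read 471 and 377 in DP cells, 529.7 and 614 in CD4intCD8+ cells and 610.2 and 636 in CD8SP cells. In these 3 genes all CD4intCD8+ and CD8SP arrays lay above both DP arrays. Lars, for leucine, read 116 and 126 in DP cells, 171 and 200.2 in CD4intCD8+ cells and 174 and 214 in CD8SP cells. Rars, for arginine, read 352 and 301 in DP cells, 462 and 433 in CD4intCD8+ cells and 504 and 512 in CD8SP cells. They too were lowest on the DP arrays, and in Rars the pair of CD8SP arrays differed least. The log2 changes were 0.64 ± 0.15 for Eprs (SE, limma adjusted p = 0.015), 0.71 ± 0.18 for Iars (0.027), 0.56 ± 0.14 for Kars (0.025), 0.65 ± 0.16 for Lars (0.021) and 0.63 ± 0.13 for Rars (0.0090), where the second value, as with later changes, is the limma adjusted p. Of these only Kars and Rars were called without DP replicate 1, and none without DP replicate 2 or CD8SP replicate 2 (unadjusted p under 0.05 in 5 of the 7 enzymes each time).

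The remaining enzymes of the complex did not pass the test. Mars1, which charges both initiator and elongator methionine tRNA, read 225 and 198 in DP cells, 252 and 291 in CD4intCD8+ cells and 267 and 327 in CD8SP cells. Its arrays did not overlap between DP and CD8SP, and its change of 0.48 ± 0.16 had an adjusted p of 0.060 without and 0.025 with the replicate block. Qars, the glutaminyl enzyme, read 681 and 603 in DP cells, 524 and 581 in CD4intCD8+ cells and 521 and 554 in CD8SP cells. Here the DP arrays were the highest, with a change of -0.25 ± 0.12 (adjusted p = 0.18).

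Outside the complex, Vars carried the largest change of all 32 members. This enzyme charges valine and is known to associate with the elongation factor eEF1. It read 67.3 and 65.3 in DP cells, 122 and 169 in CD4intCD8+ cells and 149 and 232 in CD8SP cells. The DP arrays were nearly equal and every later array lay above them, the lowest being CD4intCD8+ replicate 1. Its change of 1.41 ± 0.23 (limma adjusted p = 0.0031) was called under each of 16 alternative settings, where it ranged from 1.10 to 1.72. Yars, for tyrosine, also of class I, read 94.4 and 77.8 in DP cells, 101 and 97.0 in CD4intCD8+ cells and 139 and 133 in CD8SP cells. Here CD4intCD8+ lay close to DP and the CD8SP arrays stood apart. Its change was 0.63 ± 0.15 (adjusted p = 0.020), a call lost without DP replicate 2 or either CD8SP array. The other class I enzymes outside the complex, Wars for tryptophan (0.46 ± 0.19, adjusted p = 0.13, and 0.039 with the block) and Cars for cysteine (-0.57 ± 0.35, 0.30), did not pass.

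Of the free class II enzymes, Gars, Farsb and Sars rose. Gars, for glycine, read 393 and 341 in DP cells, 528 and 635 in CD4intCD8+ cells and 579 and 696 in CD8SP cells. All later arrays lay above the DP pair. Its change was 0.78 ± 0.15 (adjusted p = 0.0069), a call lost without DP replicate 2 or CD8SP replicate 2. Farsb, the beta subunit of the phenylalanyl enzyme, read 388 and 319 in DP cells, 409.6 and 416 in CD4intCD8+ cells and 559 and 502 in CD8SP cells. Sars, for serine, read 290.0 and 280.2 in DP cells, 336 and 328 in CD4intCD8+ cells and 419.6 and 375 in CD8SP cells. In both, each stage lay above the preceding one with no overlap between arrays. Their changes were 0.58 ± 0.14 (0.018) and 0.47 ± 0.13 (0.031), Farsb being lost without DP replicate 2 or CD8SP replicate 1 and Sars without any 1 of the 4 arrays. Farsa, the alpha subunit that pairs with Farsb, read 199.6 and 197 in DP cells, 201 and 167 in CD4intCD8+ cells and 227 and 229 in CD8SP cells. Its change of 0.19 ± 0.14 did not pass (adjusted p = 0.39), and whether the subunits differ in their change was not tested. Aars, Hars, Nars and Tars, for alanine, histidine, asparagine and threonine, had log2 changes of 0.36 to 0.46 and did not pass, Aars with an adjusted p of 0.20, and 0.027 with the block.

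**Figure D2:**
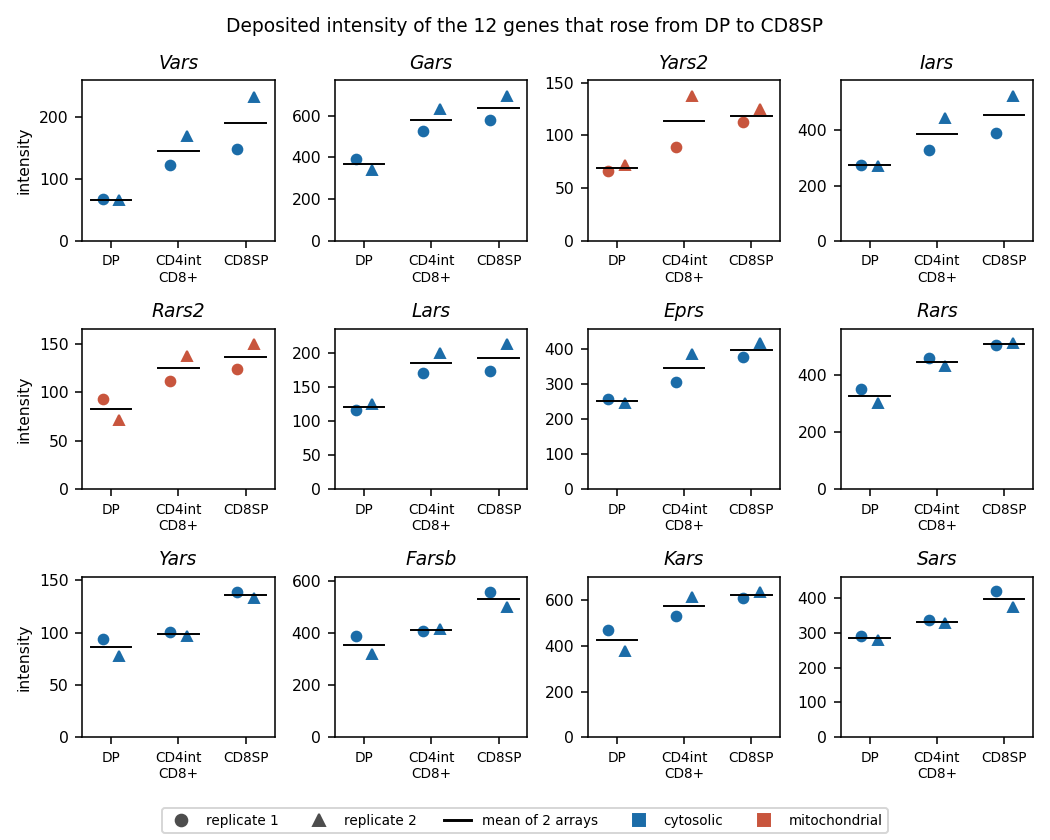
Deposited intensity (vertical axis, linear, from 0) of the 12 synthetase genes that rose from DP to CD8SP, by stage, with 1 point per array and a line at the mean of 2. In each panel both CD8SP arrays lie above both DP arrays; Vars runs from 65.3 in DP to 232 in CD8SP, and the CD4intCD8+ arrays of Yars, at 97.0 and 101, lie just above its DP arrays.

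Grouped by class, 7 of 16 class I genes and 4 of 15 class II genes rose from DP to CD8SP, beside 11.5% of all genes. Eprs, which holds a domain of each class, was counted in neither class. The median changes of class I and class II genes were 0.47 and 0.36. Without DP replicate 2 the calls numbered 1 and 0 (unadjusted p under 0.05 in 7 and 5 genes), without CD8SP replicate 2 they numbered 1 in each class, and without CD8SP replicate 1 they numbered 6 and 1. Of the 12 cytosolic synthetases known as Atf4 targets, 6 rose, with a median of 0.47. Without DP replicate 1 the calls numbered 2, and without DP replicate 2 or CD8SP replicate 2 none was called (unadjusted p under 0.05 in 6 each time). Of the 12 genes that rose, 6 are thus in that list, and Farsb, Kars, Rars, Vars, Rars2 and Yars2 are not.

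Of the mitochondrial synthetases only Rars2 and Yars2 passed the test. Rars2, for mitochondrial arginine tRNA, read 93.3 and 71.9 in DP cells, 112 and 138 in CD4intCD8+ cells and 124 and 150.0 in CD8SP cells. Yars2, for tyrosine, read 66.6 and 71.9 in DP cells, 89.0 and 137 in CD4intCD8+ cells and 112 and 125 in CD8SP cells. Both were lowest in DP, and in Yars2 CD4intCD8+ replicate 2 was the highest of all arrays. Their changes from DP to CD8SP were 0.70 ± 0.18 (0.029) and 0.73 ± 0.20 (0.035). With the actin ratio described below as a covariate, these were 0.58 (adjusted p = 0.057) and 0.48 (adjusted p = 0.068). Rars2 was lost without DP replicate 2 or CD8SP replicate 2. Yars2 was called under 8 of 16 alternatives, and was lost without any 1 of the 4 arrays of the comparison.

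The other 11 tested mitochondrial genes ran from -0.42 to 0.32. Nars2, for asparagine, read 166 and 137 in DP cells, 118 and 120.4 in CD4intCD8+ cells and 119 and 104 in CD8SP cells. Its DP arrays were the highest, and its change of -0.42 ± 0.15 had an adjusted p of 0.089 without and 0.040 with the replicate block, the only fall among the members in that fit. A dimmer probe of Nars2 changed by 0.04 ± 0.20, so the fall was seen on the brighter probe only. Aars2, Fars2 and Vars2 had changes of -0.33, -0.29 and -0.23. Tars2, Iars2, Wars2, Cars2, Pars2, Lars2 and Hars2 had changes between 0.13 and 0.32, and none of the 10 besides Nars2 passed with or without the block. The 3 dim genes read between 5.3 and 37.2 on all arrays, with adjusted p-values of 0.31 to 0.95 in the fit without the filter.

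The cytosolic and mitochondrial enzyme for an amino acid are encoded by separate genes, and 13 such pairs had both genes tested. With phenylalanine read through Farsa, the cytosolic change from DP to CD8SP was the larger in 10 of the 13. It was the larger in 10 of 12 with cysteine (-0.57 and 0.17) left out, since the probes of Cars disagree in direction. That choice rests on values already seen, and the probes of Nars2, in a pair that was kept, also differ. A dimmer probe of Tars2, at 0.74, lay above Tars at 0.40 and was called when probes were fitted singly. In that fit a dimmer probe of Nars, at 0.66, was called as well. The counts of pairs therefore hold for the brightest probes only. In 4 pairs the cytosolic gene alone was called: Vars with Vars2 (1.41 and -0.23), Iars with Iars2 (0.71 and 0.23), Lars with Lars2 (0.65 and 0.15) and Eprs with Pars2 (0.64 and 0.17). For arginine (0.63 and 0.70) and tyrosine (0.63 and 0.73) both genes were called at like sizes. In the other 7 of the 13 pairs, cysteine among them, neither was called, or in 6 where Farsb, which was called, stands for phenylalanine. In the arginine, tyrosine and cysteine pairs the mitochondrial gene had the more positive value. The differences within pairs were not tested.

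**Figure D3:**
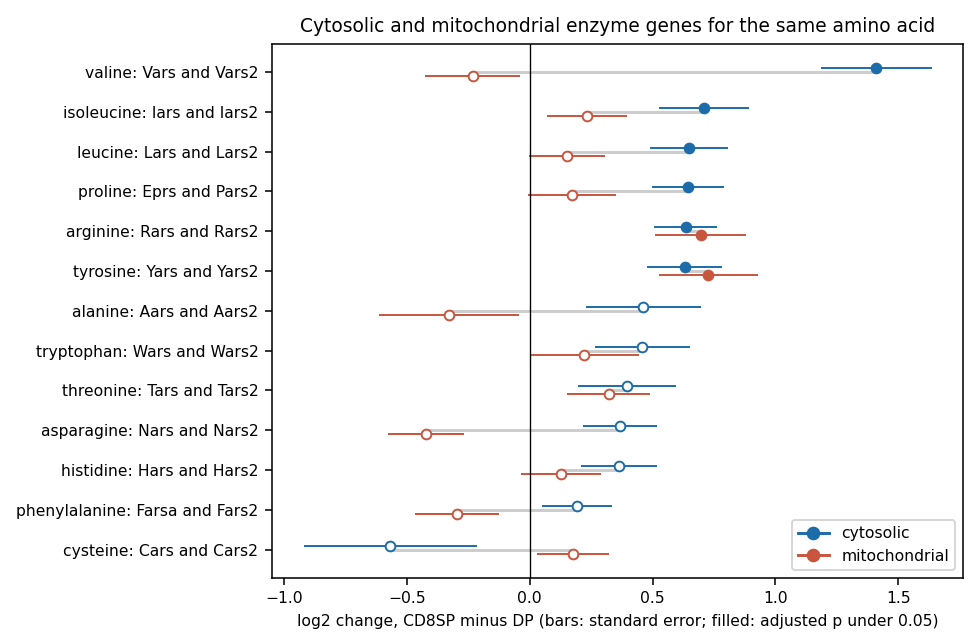
Log2 change from DP to CD8SP (horizontal axis, with standard errors) of the cytosolic and the mitochondrial gene for each of 13 amino acids; filled points have an adjusted p under 0.05. The valine pair is the widest, at 1.41 against -0.23, while both genes lie at 0.63 to 0.73 for arginine and tyrosine.

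Step by step, 15 of the 19 cytosolic genes had a positive change at both steps, from DP to CD4intCD8+ and from there to CD8SP, as had 3 of the 13 mitochondrial genes and 24.8% of all genes tested. The mean was highest in CD4intCD8+ for 4 of the 13 mitochondrial genes, Hars2, Iars2, Lars2 and Wars2, near the 26.8% of all genes tested. It was so for 1 of the 19 cytosolic genes, Aars. At the first step Gars (0.65 ± 0.15, adjusted p = 0.025), Lars (0.59 ± 0.16, 0.043) and Vars (1.05 ± 0.23, 0.020) rose and no member fell (15 members had an unadjusted p under 0.05, 14 of them higher). The background was 6.89% of all genes higher and 4.85% lower, 11.7% in all. The median log2 change of the members was 0.34, 0.35 in cytosolic and 0.25 in mitochondrial genes, against 0.01 over all genes. Both CD4intCD8+ arrays lay above both DP arrays for 21 members and below them for 5, beside 30.8% and 27.9% of all genes.

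With the replicate number as a block, which takes out what arrays of the same number share, 11 members rose at the first step and none fell, beside 13.4% and 10.2% of all genes. The added genes were Aars (adjusted p = 0.027), Eprs (0.026), Iars (0.027), Kars (0.035), Rars (0.014), Lars2 (0.040), Rars2 (0.039) and Yars2 (0.018). From DP to CD8SP the block gave 15 members higher and 1 lower, beside 16.9% and 13.1% of all genes, the additions being Aars, Mars1, Wars and the fall of Nars2. First-step calls hung on single arrays: none was left without DP replicate 1, DP replicate 2 or CD4intCD8+ replicate 2 (unadjusted p under 0.05 in 14, 6 and 4 members), and 7 were made without CD4intCD8+ replicate 1, 1 of them a fall of Cars. All genes called then numbered 321, 194, 476 and 1406, in place of 1281.

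Between CD4intCD8+ and CD8SP none of the 32 members was called by limma, with or without the block. An unadjusted p under 0.05 was reached by 2 members, Farsb and Yars, and by 4 with the block. In the same comparison 0.119% of all genes were called, and 2.07% with the block. Farsb had a log2 change of 0.36 ± 0.14 and Yars of 0.44 ± 0.15, with adjusted p-values of 0.44 and 0.38. The median change of members was 0.13, which became -0.0017 without CD8SP replicate 2, against 0.00 over all genes. The standard errors of the members, 0.12 to 0.35, were of the size of most of these changes.

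Replicates differed in a patterned way. In CD4intCD8+ 25 of the 32 members and in CD8SP 26 were higher on replicate 2 than on replicate 1, and in DP 9 were. Over all genes these shares were 54.6%, 53.0% and 47.8%. Signs of shorter RNA and of cycling cells were also higher on replicate 2 of the later stages. They were higher on replicate 2 of DP too, apart from the cell cycle gene Top2a. On that array 23 of the 32 members were lower. The ratio of the 3' to the 5' signal of the actin control grows as the labelled RNA gets shorter. It stood at 1.98 and 2.14 in the DP arrays, 2.37 and 3.47 in the CD4intCD8+ arrays and 2.28 and 2.62 in the CD8SP arrays. That of the Gapdh control was 1.37 and 1.53, 1.42 and 1.99, and 1.40 and 1.48 in the same order, overlapping between DP and CD8SP. With the log2 of the actin ratio as a covariate in limma, 10 cytosolic and no mitochondrial members rose from DP to CD8SP, with a median member change of 0.28. Of all genes 10.8% rose, and 16 members had an unadjusted p under 0.05. At the first step the actin covariate left no member called (unadjusted p under 0.05 in 4, with 3.76% of all genes called) and a median of 0.16. The first-step changes of Aars and Cars turned to -0.11 and 0.52 with it. The actin ratio was lower on both DP arrays than on every later array. In comparisons with DP this covariate and the stage therefore cannot be fully told apart, and a call lost with it has no known cause.

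The summed intensity of 7 cell cycle genes was 3541 and 3795 in DP cells, 4944 and 6936 in CD4intCD8+ cells and 4615 and 6323 in CD8SP cells. At each comparison with DP 4 of the 7 rose, beside 6.89% of all genes at the first step and 11.5% from DP to CD8SP. Mki67, a marker of cycling cells, read 702 and 757 in DP cells, 957 and 1276 in CD4intCD8+ cells and 751 and 1160 in CD8SP cells. Top2a, the other defining gene, read 1067 and 1004 in DP cells, 1148 and 1719 in CD4intCD8+ cells and 1021 and 1399 in CD8SP cells. On CD8SP replicate 1 both genes read within their DP range. Replicate 2 was thus the higher in both later stages for these genes as for most of the synthetases. In DP it was also the higher in the sum and in Mki67 but not in Top2a, while most synthetase genes were lower on it. Of the 6 dendritic markers the sum was 197 and 198 in DP cells, 309.7 and 362 in CD4intCD8+ cells and 368 and 549 in CD8SP cells. All 3 tested ones, Cd74, H2-Aa and H2-Ab1, rose from DP to CD8SP, beside 11.5% of all genes. The others did not follow, with Itgax and Flt3 between 4.7 and 39.6 and Siglech between 13.5 and 24.4. The part of cycling cells or of dendritic transcripts in the synthetase changes was not tested.

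**Figure D4:**
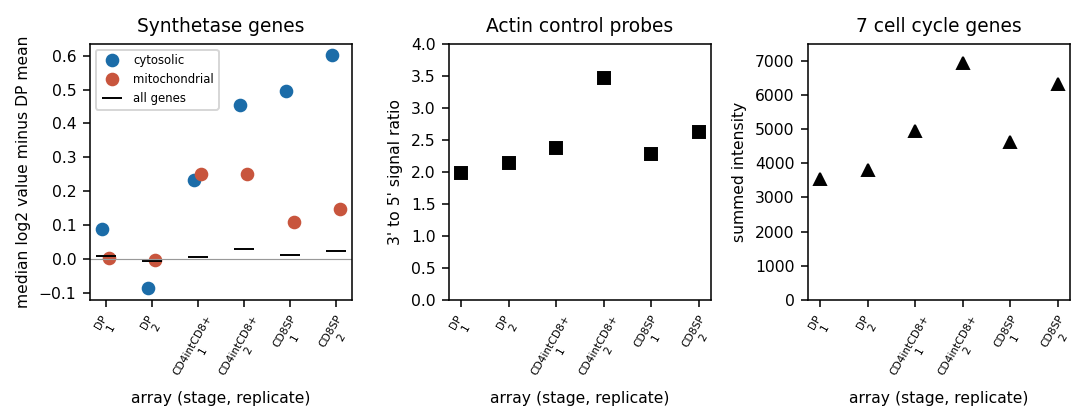
For each of the 6 arrays: the median over tested members of the log2 value minus the DP mean (left, cytosolic and mitochondrial points, with a dash for all genes), the 3' to 5' ratio of the actin control (middle) and the summed intensity of 7 cell cycle genes (right, linear). The cytosolic median rises from -0.09 on DP replicate 2 to 0.60 on CD8SP replicate 2 while all genes stay at or under 0.03. Replicate 2 is the higher in CD4intCD8+ and CD8SP in all panels, or level with replicate 1 in the mitochondrial points. In DP it is the higher in the middle and right panels only.

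Several members had more than 1 probe, 72 in all, of which 63 for 34 genes passed the filter when probes were fitted singly (limma on 20967 probes, chosen after the data were seen). From DP to CD8SP 16 probes of 14 genes rose and none fell, beside 13.9% of all probes called in either direction. The 2 genes not called through their brightest probe were Nars, whose dimmer probe changed by 0.66 ± 0.14 (adjusted p = 0.014), and Tars2, whose dimmer probe changed by 0.74 ± 0.18 (adjusted p = 0.025). The dimmer probes of Sars (0.33 ± 0.12, limma adjusted p = 0.12), Iars (0.74 ± 0.25, 0.084) and Yars2 (0.48 ± 0.20, 0.14) did not pass. Nor did dimmer probes of Eprs (0.56 ± 0.17, 0.053) and Farsb (0.36 ± 0.14, 0.12, and 0.85 ± 0.25, 0.053), beside others of these 2 genes that did. For Cars the probes disagreed in direction, the brighter at -0.57 ± 0.35 (adjusted p = 0.33) and the dimmer at 0.79 ± 0.25 (adjusted p = 0.063), so that no direction can be given for the cysteine enzyme. The probes of Nars2 differed as well, the brighter at -0.42 ± 0.16 (limma adjusted p = 0.12) and the dimmer at 0.04 ± 0.20 (0.93). Those of Cars2 ran from -0.34 to 0.17. These probes are named after their values were seen.

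Of the 3 scaffold proteins of the multi-synthetase complex, Aimp2 and Eef1e1 rose in both comparisons with DP. Aimp2, a core scaffold protein, read 222 and 249 in DP cells, 408 and 462 in CD4intCD8+ cells and 471 and 574 in CD8SP cells. Eef1e1, a further scaffold protein, read 304 and 369 in DP cells, 527 and 576 in CD4intCD8+ cells and 575 and 595 in CD8SP cells. In both, every later array lay above both DP arrays. From DP to CD8SP they changed by 1.13 ± 0.15 (0.0011) and 0.79 ± 0.13 (0.0038), both called under each alternative setting, and at the first step by 0.87 ± 0.15 (0.0091) and 0.71 ± 0.13 (0.013). Aimp1 had changes of 0.37 ± 0.13 from DP to CD8SP and 0.42 ± 0.13 at the first step, with adjusted p-values of 0.071 and 0.063, and passed with the block (0.018 and 0.013). The first-step calls of Aimp2 and Eef1e1 were lost with the actin covariate (adjusted p of 0.11 and 0.16).

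Among genes that trim, modify and export tRNA, 17 of 33 tested rose from DP to CD8SP and 10 at the first step, beside 11.5% and 6.89% of all genes. None fell in either comparison, beside 8.38% and 4.85% of all genes. With the block in limma Ctu2, which helps thiolate tRNA, fell in both (-0.30, adjusted p 0.034, and -0.31, 0.037). Trmt61a, the catalytic subunit of an enzyme that methylates an adenosine in the T loop, read 36.0 and 28.0 in DP cells, 71.2 and 65.5 in CD4intCD8+ cells and 105 and 119 in CD8SP cells. Mettl1, which methylates a guanosine of tRNA, read 47.3 and 37.6 in DP cells, 83.7 and 103 in CD4intCD8+ cells and 98.3 and 113 in CD8SP cells. Pus1, a pseudouridine synthase, read 61.3 and 46.7 in DP cells, 102 and 118 in CD4intCD8+ cells and 137 and 131 in CD8SP cells. In all 3, every later array lay above both DP arrays. Their changes from DP to CD8SP were 1.64 ± 0.18 (0.00049), 1.21 ± 0.18 (0.0023) and 1.24 ± 0.17 (0.0015). Rpp40, a protein of ribonuclease P, changed by 1.36 ± 0.29 (0.012). With all probes averaged the whole-span count was 11, and leaving out DP replicate 1, DP replicate 2 or CD8SP replicate 2 gave 8, 11 and 9. The first-step count was 17 higher and 1 lower with the block, and 0 with the actin covariate or without DP replicate 2 (unadjusted p under 0.05 in 7 and 17).

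Of the other genes of the Atf4 and amino acid response, 9 of 21 tested rose from DP to CD8SP and none fell, beside 11.5% and 8.38% of all genes. At the first step 7 rose and Vldlr fell (-0.91 ± 0.22, 0.031), beside 6.89% and 4.85% of all genes. The call of Vldlr was lost without DP replicate 1, DP replicate 2 or CD4intCD8+ replicate 2. With the block in limma 10 rose and 2 fell from DP to CD8SP, beside 16.9% and 13.1% of all genes. The falls were Ddit3 (-0.35, adjusted p 0.049) and Ppp1r15a (-0.77, 0.026). At the first step 9 rose and 3 fell with the block, beside 13.4% and 10.2% of all genes. These falls were Ddit4 (-0.49, 0.040), Sesn2 (-0.64, 0.027) and Vldlr. The shares of falls with the block lay near those of all genes. Slc7a5, the large neutral amino acid transporter, read 29.1 and 27.2 in DP cells, 79.2 and 129 in CD4intCD8+ cells and 111 and 176 in CD8SP cells, a change of 2.10 ± 0.26 (0.00095). Slc7a1, a carrier of cationic amino acids, read 99.8 and 115 in DP cells, 246 and 254 in CD4intCD8+ cells and 277 and 415 in CD8SP cells, a change of 1.61 ± 0.19 (0.00071). Both were brighter on all later arrays than in DP. Shmt2 and Mthfd2, of mitochondrial one-carbon metabolism, changed by 1.48 ± 0.19 (0.0011) and 1.31 ± 0.20 (0.0022). Psat1, Phgdh and Psph, the serine synthesis enzymes, changed by 1.00, 0.61 and 0.40 (adjusted p of 0.0029, 0.017 and 0.049); Psph was lost without any 1 of the 6 arrays. The remaining calls were Aldh18a1 (0.87), of proline synthesis, and Xpot (1.04), the tRNA exporter, which is also in the preceding list. Atf4 itself read 613 and 675 in DP cells, 626 and 609 in CD4intCD8+ cells and 622 and 764 in CD8SP cells, a change of 0.10 ± 0.13 (0.64). Asns (0.20 ± 0.23, 0.60) and Ddit3 (-0.35 ± 0.14, 0.11), textbook targets of Atf4, did not pass either without the block. These 2, the genes that fell, the serine enzymes and Aldh18a1 and Xpot are named after their values were seen. The first-step calls numbered 0 with the actin covariate or without DP replicate 2 (unadjusted p under 0.05 in 6 and 11), 3 without DP replicate 1 and 3 without CD4intCD8+ replicate 2.

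For RNA polymerase III, which transcribes tRNA genes, the shares called from DP to CD8SP lay near those of all genes (11.5% higher and 8.38% lower). Of 20 tested genes 3 rose, the subunits Polr3d (0.64) and Polr3e (0.69) and the factor Gtf3a (0.64), and 2 fell. The falls were Maf1, the repressor of the polymerase, and Brf1, a subunit of its initiation factor TFIIIB. Maf1 read 989 and 924 in DP cells, 606 and 499.6 in CD4intCD8+ cells and 649 and 557 in CD8SP cells, a change of -0.66 ± 0.13 (0.0092). Brf1 read 215 and 182 in DP cells, 128 and 138 in CD4intCD8+ cells and 132 and 145 in CD8SP cells, a change of -0.50 ± 0.15 (0.045), a call lost without any 1 of the 4 arrays. At the first step these 2 were the only calls without the block (-0.79 ± 0.13, 0.0092 and -0.56 ± 0.15, 0.043). Polr3k and Gtf3c5, the others with the largest first-step changes, had 0.44 each without passing. With the block Polr3k (0.44, adjusted p 0.017), Gtf3a (0.43, 0.013) and Gtf3c6 (0.38, 0.035) rose as well, beside 13.4% of all genes. Without DP replicate 1 none of the list was called in either comparison (unadjusted p under 0.05 in 5 and 6 genes), and with all probes averaged Maf1 no longer passed from DP to CD8SP (adjusted p = 0.20).

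Elongation and termination factors of the cytosol held 3 rises among 9 tested genes and a fall of Eef1a1 (-0.20) from DP to CD8SP. Over all genes 11.5% rose and 8.38% fell, and 6.89% and 4.85% at the first step. The fall of Eef1a1 was lost without any 1 of the 4 arrays. Eef1b2 and Eef1d, of the exchange factor of eEF1, changed by 0.24 ± 0.07 (0.040) and 0.54 ± 0.10 (0.0057), and Abce1, the ribosome recycling factor, by 0.60 ± 0.12 (0.0080). Gspt1, a release factor, had 0.30 ± 0.15 (0.20) and did not pass. The same 3 genes rose at the first step, and none was called without any 1 of the 6 arrays (unadjusted p under 0.05 in 3 or 4 genes). The whole-span calls numbered 1 without DP replicate 2 or CD8SP replicate 2 and 1 with all probes averaged. Of the mitochondrial translation factors 1 of 11 rose, near the 11.5% of all genes. It was Gfm1, an elongation factor (0.66 ± 0.20, 0.049), a call lost in 8 of 16 alternatives. Mrrf, Mtif2 and Mtif3, of ribosome recycling and initiation, had 0.42, 0.30 and -0.23 and did not pass, though Mrrf did with the block (0.026). At the first step none of the 11 was called (3 had an unadjusted p under 0.05), and Gfm1 (0.0070) and Mrrf (0.012) rose with the block.

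**Figure D5:**
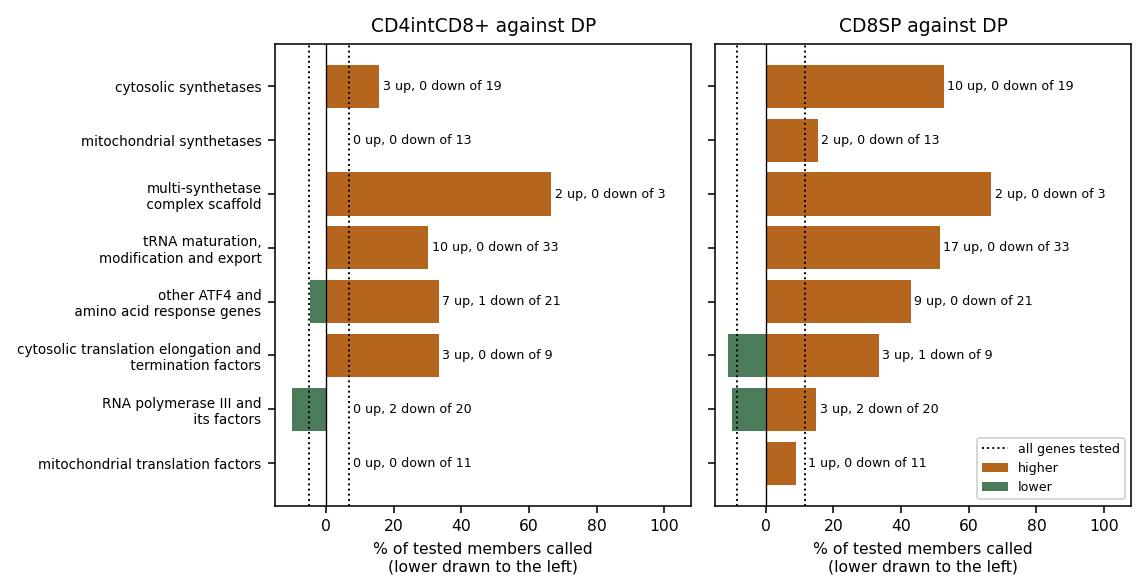
Share of tested members called higher (to the right) or lower (to the left) in 8 gene lists, for CD4intCD8+ and for CD8SP against DP, in percent; dotted lines give the shares over all genes tested. Cytosolic synthetases (10 of 19), the scaffold (2 of 3) and tRNA maturation (17 of 33) lie far to the right of the 11.5% of all genes in CD8SP, and mitochondrial synthetases (2 of 13) lie near it.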

How the data were processed

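The deposited table holds 1 linear intensity per probe and array, made by the authors. Scaling, background correction and software are not given in the sources used here. Values below 0 made up 3.60% of the table, so some background had been subtracted, and array medians of 24.9 to 25.7 show a common scale. Total RNA had been labelled as biotin cRNA, per the labels.

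Control probes (64) were left out. Of the remaining 45037 probes 34945 had a single gene symbol, 932 several and 9160 none in the platform annotation, which can be old; 34741 matched a RefSeq gene table (GRCm38.p6, used for names). Each of the 18193 genes was given its probe with the highest mean. Negative values became 0, and the log2 scale used a pseudocount of 5.84, the 10th percentile of positive values; this understates changes of dim genes. Genes under the 40th percentile were left out. All 6 arrays were fitted with limma 3.58.1 (lmFit, eBayes with trend; R 4.3.3, statmod 1.5.0), with only stage in the model; residual and prior degrees of freedom were 3 and 6.08. P-values were adjusted by Benjamini-Hochberg over all 10916 genes of a contrast, with calls at an adjusted p under 0.05. The ± sign precedes the standard error of a log2 change. The script was tested on simulated data.

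Arrays of the same replicate number deviated together from their stage means (correlations across genes of 0.26, 0.21 and 0.30), and the design names 2 experiments, so the numbers were taken to pair the arrays; the block's value stands where it changes a call. Full values are given for members called in any contrast, which include the 6 with the largest whole-span change, and up to 4 genes of each other list by first-step change. Qars, Mars1, Farsa, Nars2, Aimp1 and Atf4 values by array, and names so marked, were chosen after values were seen. Members and all 12 lists, of general knowledge, were chosen with earlier results of these data known. The number of arrays limits the precision. Scanner files were not used here.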

Additional observations from a re-analysis of the deposited data

How the results depend on the processing

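Alternatives covered the pseudocount, the filter, the mean of all probes, quantile normalization, the intensity trend, the pairing, the actin ratio, only the 4 arrays compared, and leaving out each array; the fit of single probes was chosen after the data were seen. At the first step 3 members were called; this was 1 without the trend, 11 with the replicate block, 0 with the actin ratio as covariate (unadjusted p under 0.05 in 4) and 0 to 7 without 1 array. From DP to CD8SP 12 were called, 16 with the replicate block, 8 without the trend, 10 with the actin ratio and 1 to 12 without 1 array. Between CD4intCD8+ and CD8SP limma called 0 under each setting, with 1 to 5 members at an unadjusted p under 0.05. No change called in the stage-only fit turned its direction in a member or named gene. Of changes called under an alternative, the first-step changes of Aars and Polr3k (called with the block) became -0.11 and -0.02 with the actin ratio, that of Cars (a fall without CD4intCD8+ replicate 1) became 0.52, and the whole-span fall of Ddit4 (called without CD8SP replicate 1) became 0.12 without CD8SP replicate 2. The median first-step change moved from 0.34 to 0.16 with the actin ratio. Apart from those named, the block changed no member's call. From DP to CD8SP Sars and Yars2 were lost without any 1 of the 4 arrays compared, the other called members except Vars without 2 or 3 of them, and Vars alone of the members kept its call under each setting. A left-out array leaves a lone one that is assumed to vary like the others. Dim genes, near the pseudocount, have no usable fold change.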
